A study of Mus musculus with 3 samples.

Results

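HBO1 peaks that lay at the start of a noncoding transcript, and away from every coding start, numbered 961 in Oct1 deficient mouse ESCs. They made up 7.60% (95% exact binomial interval 7.15 to 8.08) of the 12637 peaks on chromosomes 1 to 19 considered here, and the whole deposited list held 13823 peaks. A peak was included when its edge lay within 1000 bp of the transcription start site (TSS) of any transcript in GENCODE vM21, while both its edge and its summit lay over 1000 bp from the TSS of every transcript of the type protein_coding. A stretch of chromosome 3 that begins at 100 Mb was left out. Noncoding here means a transcript that GENCODE does not type as protein_coding, so transcripts of the type nonsense_mediated_decay and gene segments of immunoglobulin and T-cell receptors were counted although they hold coding sequence. Another 4407 peaks lay at coding starts, and 7269 lay over 1 kb from any start.

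ChIP-seq for HBO1 was carried out in ESCs that lack Oct1, the Oct4 paralog. All samples shared this genotype, and the cells were cultured with 3 µM CHIR99021, 1 µM PD0325901 and ascorbic acid and fixed with 1% formaldehyde. There were 2 samples of HBO1 ChIP and 1 of input, chromatin sequenced with no immunoprecipitation. The antibody label of the second ChIP sample reads HBO2 while its title reads HBO1, and it was treated as HBO1. A single peak list was deposited, so peaks had no spread between replicates and no p-value was computed. Intervals cover counting error between peaks only. The input held 31973678 read ends, and no reads of the ChIP libraries were used here.

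HBO1, also named KAT7, is a histone acetyltransferase of the MYST family that acetylates histone tails in complexes built on scaffold proteins of the JADE and BRPF families. It is known for occupying the 5′ ends of active genes. Noncoding starts are a mixed group. Those of long noncoding RNAs (lncRNAs) are promoters of their own. Retained introns, and most processed transcripts here, have starts annotated inside protein-coding genes. Those of miRNAs and most snoRNAs mark the edge of a short RNA that is cut out of a longer transcript. Whether the annotated starts are used in these cells was not tested.

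Sequences at the strongest peaks, and at a few weaker ones, are shown first. Within 1 kb of the peak of highest enrichment lay hairpins of the miR-290 cluster on chromosome 7, from which miR-291a-3p, miR-294-3p and miR-295-3p share 1 seed, bases 2 to 8 and in capitals here. The miRNAs miR-106b-5p and miR-93-5p lay at weaker member peaks on chromosome 5, with fold enrichments of 3.40 and 4.06. They share a seed with the same letters AAGUGC shifted by 1 base. All come from RefSeq, which gave 70 mature miRNAs near members.
mmu-miR-291a-3p: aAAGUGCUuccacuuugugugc
mmu-miR-294-3p: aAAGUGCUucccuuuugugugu
mmu-miR-295-3p: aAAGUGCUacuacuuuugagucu
mmu-miR-290a-3p: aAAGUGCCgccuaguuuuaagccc
mmu-miR-106b-5p: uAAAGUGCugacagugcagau
mmu-miR-93-5p: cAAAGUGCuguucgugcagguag

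For other starts, 180 bases around the summit are shown from RefSeq's GRCm38 sequence, in the direction of the noncoding transcript and with each CpG in capitals. They are the members of highest enrichment among isoforms of protein-coding genes, lncRNA genes, transcripts typed TEC and pseudogenes, followed by Terc, the telomerase RNA gene, chosen for its many CpGs.
Slc25a12, chr2:71348189-71348368, minus strand: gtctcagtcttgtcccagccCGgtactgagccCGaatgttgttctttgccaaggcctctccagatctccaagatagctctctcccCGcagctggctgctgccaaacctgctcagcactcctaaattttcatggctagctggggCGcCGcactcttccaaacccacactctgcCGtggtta
Gm13166, chr4:146270432-146270611, plus strand: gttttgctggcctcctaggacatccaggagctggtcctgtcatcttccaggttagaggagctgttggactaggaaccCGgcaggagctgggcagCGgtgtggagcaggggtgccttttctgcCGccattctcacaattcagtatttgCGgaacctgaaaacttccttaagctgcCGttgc
Gm37376, chr19:5801027-5801206, plus strand: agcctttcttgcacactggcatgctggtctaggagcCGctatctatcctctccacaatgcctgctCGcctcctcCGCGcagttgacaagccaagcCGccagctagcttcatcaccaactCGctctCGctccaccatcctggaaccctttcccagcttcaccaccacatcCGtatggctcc
Gm11800, chr4:8118240-8118419, plus strand: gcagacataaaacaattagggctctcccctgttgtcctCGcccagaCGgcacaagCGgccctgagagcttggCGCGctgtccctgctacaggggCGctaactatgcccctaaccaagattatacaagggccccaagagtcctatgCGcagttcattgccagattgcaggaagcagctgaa
Terc, chr3:96414491-96414670, minus strand: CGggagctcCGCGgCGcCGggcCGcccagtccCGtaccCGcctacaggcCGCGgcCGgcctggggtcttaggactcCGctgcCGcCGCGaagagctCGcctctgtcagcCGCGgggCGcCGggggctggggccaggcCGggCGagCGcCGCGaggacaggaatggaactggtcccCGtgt

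The Slc25a12, Gm13166, Gm37376 and Gm11800 windows held 6, 5, 8 and 7 CpGs, and the Terc window, picked for this, held 26.

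The nearest start was most often that of an isoform of a protein-coding gene, with 370 peaks at 325 genes. Genes of lncRNAs followed with 222 peaks, pseudogenes with 190, small RNA genes with 138 and TEC transcripts, a GENCODE type for transcripts not yet verified, with 36. A further 5 peaks lay at immunoglobulin or T-cell receptor segments. In all, 61.5% (58.3 to 64.6) of the peaks were nearest to a gene of a noncoding gene type. By transcript type, 184 were at retained introns, 174 at processed transcripts, 138 at lincRNAs, 135 at processed pseudogenes, 65 at antisense transcripts, 57 at snoRNAs and 36 at miRNAs. The peaks spread over 882 genes, of which 67 had more than 1 peak, and over every autosome, with 23 peaks on chromosome 18 and 90 on chromosome 7. For 253 peaks more than 1 noncoding start lay within 1 kb, so the named gene is the nearest one and not the only candidate.

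**Figure D1:**
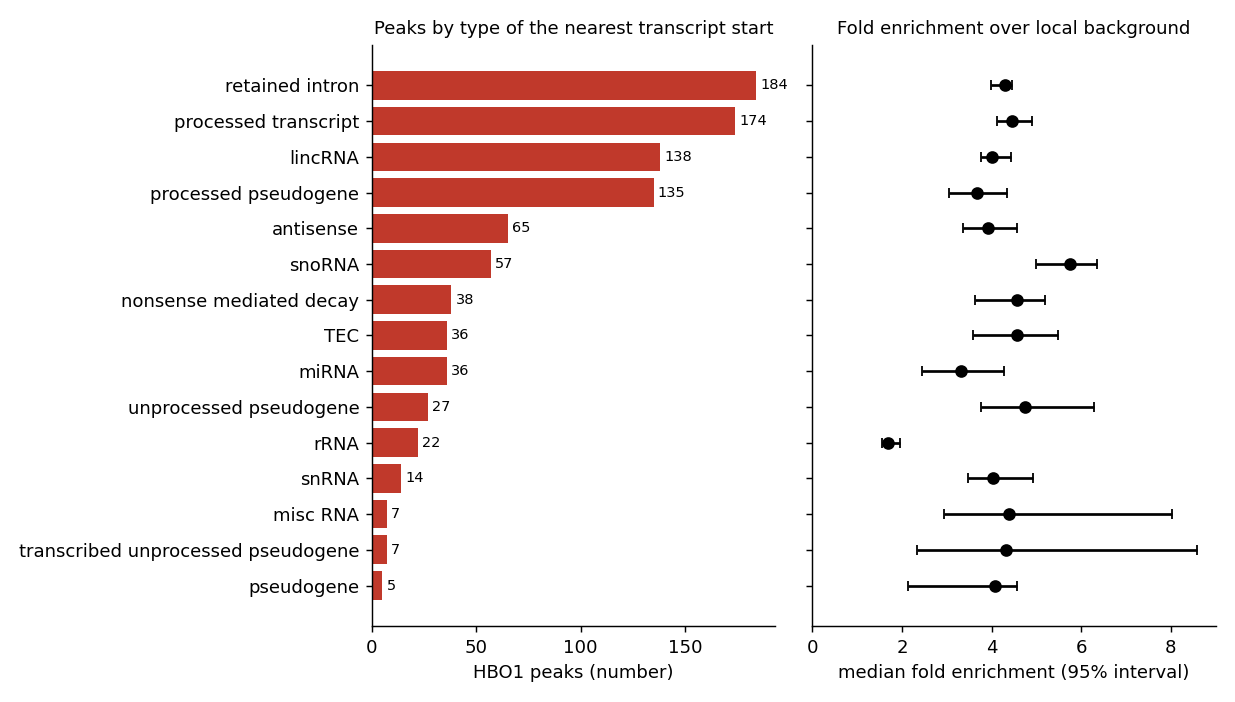
Number of HBO1 peaks at noncoding starts by the GENCODE type of the nearest transcript (left, bars) and the median fold enrichment over local background of each type with its 95% interval (right, points), for types with at least 5 peaks. Median fold enrichment was highest at snoRNAs (5.75) and lowest at rRNAs (1.68), where 20 of the 22 peaks lie in 1 array of 5S rRNA genes and the other 2 have a median of 5.64.

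Fold enrichment, the ratio of ChIP signal at the summit over the local background as given in the deposited list, had a median of 4.25 (4.09 to 4.39) at noncoding starts and ran from 1.44 to 24.4. At coding starts the median was 2.57 (2.54 to 2.59), and at peaks over 1 kb from any start it was 4.65 (4.61 to 4.71). The ratio of the medians, noncoding over coding starts, was 1.66. The −log10 q, the significance that the peak caller assigned, ordered the sets otherwise, with medians of 6.89 (6.54 to 7.18) at noncoding starts, 7.97 (7.79 to 8.16) at coding starts and 6.21 (6.15 to 6.39) away from starts. Widths had medians of 369, 446 and 340 bp.

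The input moved with this difference. Around the summits at noncoding starts a median of 13 input read ends fell in 1 kb, against 86 at coding starts and 10 away from starts. Within classes of similar input the difference in fold enrichment was much smaller and had no constant direction. With up to 10 read ends the median was 5.30 (5.15 to 5.49) at noncoding starts and 5.61 (5.30 to 5.79) at coding starts. With 61 to 120 read ends it was 2.38 (2.26 to 2.50) at noncoding and 2.45 (2.42 to 2.48) at coding starts. The ratio of the medians ran from 0.907 above 120 read ends to 1.10 at 31 to 60. Intervals of noncoding and coding starts overlapped in each class except above 120 read ends, where noncoding starts were lower, at 2.04 (1.93 to 2.13) against 2.25 (2.22 to 2.30). Of these 61 peaks, 20 belong to a single array of 5S rRNA genes described with the small RNAs, and without them, an alternative added after the data were seen, the median was 2.13 (2.04 to 2.32) and the intervals overlapped here too. How the input level acted on the fold enrichment was not tested.

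**Figure D2:**
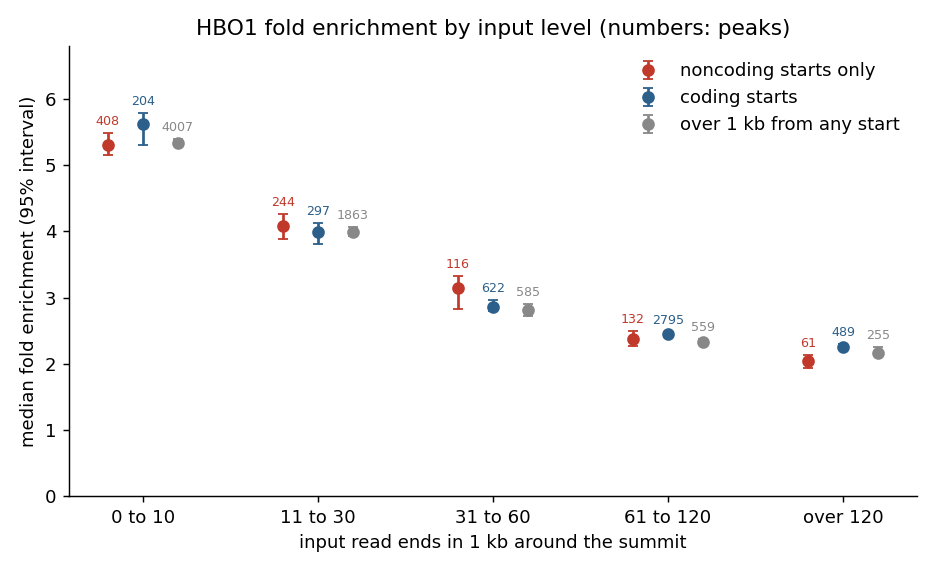
Median fold enrichment with 95% interval (vertical axis) in 5 classes of input read ends per 1 kb around the summit (horizontal axis), for peaks at noncoding starts only, at coding starts and over 1 kb from any start, with the number of peaks above each point. The medians of the 3 sets lay close together within a class and fell from above 5 at the lowest input to near 2 at the highest.

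Many values were tied, since 352 of the 961 peaks shared their exact fold enrichment with at least 1 other of them, 255 of 408 with up to 10 input read ends and 10 of 132 with 61 to 120. At least 10-fold enrichment was reached by 11 peaks (1.14%, 0.573 to 2.04), compared with 0.340% (0.191 to 0.561) at coding starts and 0.564% (0.405 to 0.764) away from starts. The first and last intervals overlapped, and the sets were not matched by input here. Several of the 11 peaks had few input read ends of good mapping quality, as given below.

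The highest fold enrichment of the whole list of 13823 peaks, 24.4, was at the miR-290 cluster, a group of miRNAs known as the most abundant in ESCs. This peak of 2112 bp, with a −log10 q of 125, had 16 input read ends around its summit, all of them with a mapping quality of at least 20. Its summit lay 19 bp upstream of the Mir291b start. Slc25a12, the gene of a mitochondrial aspartate and glutamate carrier, followed with 23.1 at a processed transcript inside the gene, and had 2 further peaks of 6.53 and 6.29 nearby. The lincRNA gene Gm13166 had 22.6, but only 1 of the 13 input read ends around that summit had a mapping quality of at least 20, so its reads may come from elsewhere in the genome. Gm37376, a TEC transcript within the span of Malat1, had 19.2 at a summit 824 bp upstream of its start and inside Malat1.

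The rest of the 10 highest peaks were mostly at small RNAs and lncRNAs. The snoRNA genes Gm24518 and Gm22128 had 14.1 and 11.4, and the antisense gene Gm43391 had 11.3. Of the input read ends, 2 of 9, 36 of 60 and 1 of 9 passed the quality limit at these 3 peaks. Gm23976, typed miRNA, had 11.2 with none of its 4 input read ends above the quality limit. Gm46430, typed lincRNA, also had 11.2, with a summit 1 bp from the start and 2 input read ends. Snord14c, a snoRNA within Hspa8, a constitutive chaperone gene, had 10.5, and none of its 10 input read ends passed the quality limit. Of the highest members of each class, the pseudogene Gm11800 had 9.25 and the T-cell receptor segment Trav3n-3 had 6.53.

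Ranking by −log10 q brought in peaks of low fold enrichment and very high input. Pisd-ps2 led with 144 at a fold enrichment of 3.60 and 557 input read ends. Gm21769 and Gm10060, with 813 and 842 read ends, had −log10 q of 89.5 and 61.4 but fold enrichments of only 2.28 and 1.94. Sfi1, the gene of a centrosomal protein, had 66.2 with 235 read ends and a fold enrichment of 3.12. The snoRNA gene Gm22711 had 64.0 with 59 read ends, all of good mapping quality, and a fold enrichment of 5.42.

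Of the 370 peaks at isoforms of protein-coding genes, 98.1% (96.1 to 99.2) had their summit inside a protein-coding gene and 32.4% (27.7 to 37.5) in an exon of a coding transcript. For 284 of them the nearest coding start belonged to the same gene, and the median distance from the summit to a coding start was 8266 bp (6859 to 9432). Jade1, which encodes a scaffold subunit of HBO1 complexes, had 4 peaks at retained introns, with fold enrichments of 7.83, 7.45, 3.56 and 2.68. Srrm2, which encodes a splicing factor, also had 4, from 3.27 to 5.07. Kdm2b, the gene of a CpG-binding Polycomb subunit, had 3, of 9.71, 5.60 and 3.71. No other gene had 4, and Mllt6, Rfc5, 4833413E03Rik, Sugp2, Gm42047, Slc25a12 and Snord83b had 3 like Kdm2b.

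Genes of ribosomal proteins, looked at after their values had been seen, held 18 of the 961 summits (1.87%, 1.11 to 2.94) in 13 of 80 such genes (16.2%, 8.95 to 26.2). Of all 20807 protein-coding genes, whatever their length, 2.32% (2.12 to 2.54) held a summit of these peaks. Peaks over 1 kb from any start had 0.151% (0.0756 to 0.271) of their summits there, and those at coding starts had 2.11% (1.71 to 2.58). The length of these genes that lies near a noncoding start was not measured. Retained introns of Rps9 and Rps19 had fold enrichments of 9.40 and 8.22, with 17 input read ends each. The lowest of the 18 was a peak in Rpl6 with 3.30. Of the 18 peaks, 7 were nearest to small RNA genes, among them Snord15a in Rps3, Gm26448 and Snora62 in Rpsa, Snord83b with 2 peaks in Rpl3, and Snora65 in Rpl12.

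Genes of lncRNAs had a median fold enrichment of 3.98 (3.63 to 4.31), and 34.7% (28.4 to 41.3) of their peaks were CpG-rich at the summit. The CpG-rich share was 41.6% (34.5 to 48.9) for pseudogenes, 36.1% (20.8 to 53.8) for TEC transcripts and 29.0% (21.6 to 37.3) for small RNA genes. For isoforms of coding genes it was 15.1% (11.6 to 19.2). Among small RNA types the share was 77.3% (54.6 to 92.2) at rRNAs, where 20 of the 22 peaks lie in 1 array of 5S genes. It was 35.7% (12.8 to 64.9) at snRNAs, 30.6% (16.3 to 48.1) at miRNAs and 8.77% (2.91 to 19.3) at snoRNAs. CpG-rich meant GC above 50% and an observed over expected CpG ratio above 0.6 in 300 bp around the summit. After Gm13166, Gm43391 and Gm46430 the highest fold enrichments at lncRNA genes were 9.99 at E430024I08Rik, 9.77 at Lrrc75aos2 and 9.62 at AC167363.1. Of the peaks at lncRNA genes, 28.8% (23.0 to 35.3) had a summit inside a protein-coding gene.

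Lists of known noncoding genes were counted next, by whether a start of the gene lay within 1 kb of one of the 961 peaks. Of all 50406 gene starts on these chromosomes, 10.6% had an HBO1 peak of any kind within 1 kb, and of the 27395 noncoding gene starts over 1 kb from coding starts, 2.48% did, counting only the outermost start of each gene. Counting any start, as for the lists, 2.24% of the 29872 genes of noncoding types lay within 1 kb of one of the 961 peaks. Lists of well-studied genes are short and chosen by name, so their counts are a description. Of 15 nuclear and housekeeping lncRNAs, 8 had such a peak. Malat1, an abundant RNA of nuclear speckles, had 3 within 1 kb of its starts, the highest of 7.10, apart from the 19.2-fold peak inside it that lies farther from them, and Neat1, the scaffold RNA of paraspeckles, had 1 of 3.64. The other members of this list were Kcnq1ot1 and Meg3, given with the imprinted genes, and 4 more. Dancr had 4.20, Epb41l4aos 3.05, Mir17hg, the host of the miR-17 to miR-92 hairpins, 3.03, and Mir22hg 2.50. Tug1 had none.

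Among 40 pluripotency-related noncoding genes, 12 had a member peak, and 8 of these were hairpins of the miR-290 cluster within 1 kb of a single peak. Lncenc1 had 2 peaks, the highest of 6.58, Platr26 had 6.77 and Platr27 had 3.28. Trp53cor1, the lincRNA-p21 gene, had 2 peaks, the highest of 5.91. The other Platr genes had none, apart from Platr23, whose peak counted as at a coding start. Imprinted lncRNAs had peaks in 3 of 11, namely Kcnq1ot1 with 3.62, Meg3 with 4.78 and Snhg14 with 6.36, while H19 and Airn had none. The Snhg14 value is that of a peak over Snord116l17, one of the near-identical snoRNA copies of the chromosome 7 run described with the small RNAs.

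Hosts of small RNAs had member peaks in 10 of 24 genes, and 3 more had only a peak at a coding start. Snhg12 had 6.21, Snhg17 5.35, Snhg6 4.45, Snhg10 4.15, Snhg15 2.46 and Snhg20 2.40, with Mir155hg the lowest at 2.31. The −log10 q was 39.5 at Snhg6, and 43.0 at a second Snhg12 peak of 5.99-fold enrichment. Of 20 developmental antisense lncRNAs, 1 had a peak, Hoxaas3 with 2.50. Of 26 genes for RNAs made by RNA polymerase III and other small structural RNAs, 3 had one, namely Terc with 4.38, Rnu11 and Rnu1b6, and Rn7s1, Rnu12 and Rnu7 had only a peak at a coding start. Rmrp, Rpph1 and Rn7sk had no peak within 1 kb.

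Small RNA genes stood out by 2 long runs of neighbouring peaks. The first held 24 peaks in 184 kb of chromosome 7, at chr7:59700734-59884850, in the imprinted region of Snhg14, and 23 of these were nearest to snoRNAs. Their fold enrichment ran from 3.43 to 14.1, with a median of 5.97. The annotated snoRNAs there are copies of each other: over 94 bases from the start, the 22 snoRNA starts nearest to these peaks were pairwise identical in a median of 98.9% of letters and at least 92.6%. Sequences of 3 copies from their starts, from RefSeq's GRCm38, are shown in the direction of transcription, with the letters of the C box, TGATGA, and each CTGA, the letters of the D box, in capitals. Gm22128 and Gm25350 are identical over these 100 bases.
Gm24518, chr7:59728675-59728774, minus strand: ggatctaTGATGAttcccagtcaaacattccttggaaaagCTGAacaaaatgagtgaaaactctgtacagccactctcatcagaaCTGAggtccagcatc
Gm22128, chr7:59771650-59771749, minus strand: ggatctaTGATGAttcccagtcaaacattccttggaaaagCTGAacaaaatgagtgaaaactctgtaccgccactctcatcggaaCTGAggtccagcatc
Gm25350, chr7:59753996-59754095, minus strand: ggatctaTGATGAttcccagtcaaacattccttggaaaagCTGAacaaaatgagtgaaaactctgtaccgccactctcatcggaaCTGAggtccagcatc

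Summits in the run lay a median of 108 bp downstream of the snoRNA start, and 18 of the 24 peaks spanned a start. Of the 54 snoRNA starts annotated between the ends of the run, 23 had a peak within 1 kb (42.6%, 29.2 to 56.8). Of the input read ends around these summits, 34.2% had a mapping quality of at least 20, and 22 of the 24 summits were in sequence that is at least 50% repeat-masked. With near-identical copies, which copy a read came from is uncertain, and the fold enrichment of single copies should be read together.

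The second run held 20 peaks in 85.1 kb of chromosome 8, at chr8:123538849-123623969, all of them nearest to genes of 5S rRNA, the small ribosomal RNA made by RNA polymerase III. Here fold enrichment was low, from 1.44 to 2.19, with 203 to 330 input read ends around each summit. Only 1.91% of those read ends had a mapping quality of at least 20. The summits lay upstream, by a median of 140 bp. Both runs lay in repeated genes, but they differed in the share of read ends of good mapping quality and in input, with medians of 13.5 read ends in the snoRNA run and 296.5 in the 5S run.

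**Figure D3:**
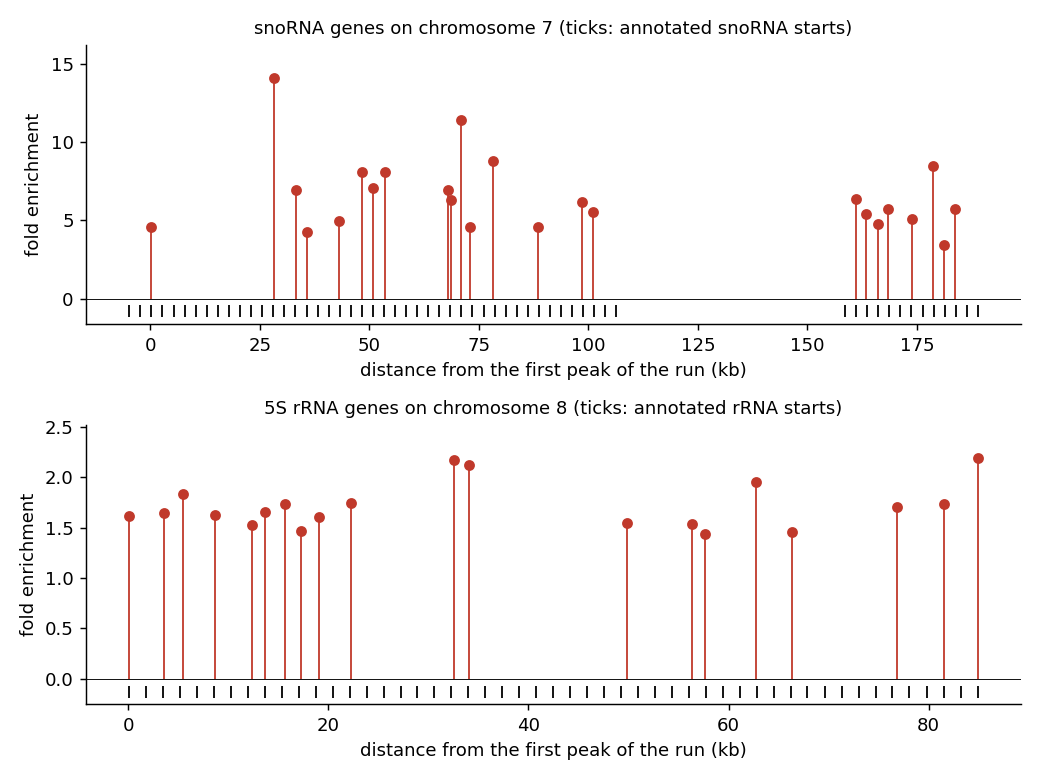
Fold enrichment of each HBO1 peak (points with stems) by its distance in kb from the first peak of the run, for the snoRNA genes on chromosome 7 (top, 24 peaks) and the 5S rRNA genes on chromosome 8 (bottom, 20 peaks), with ticks for the annotated starts. The snoRNA peaks reached 14.1 with a gap of 59.8 kb between the 16th and the next, and the 5S peaks stayed at or below 2.19.

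Outside the chromosome 7 run, 34 peaks were nearest to snoRNAs, with a median fold enrichment of 5.59 (4.47 to 6.57) and 9 input read ends, and 20 of them had their summit inside a protein-coding gene. They included Snord12 with 8.89, Snord1c with 6.89 and Snora61, in Snhg12, with 6.21. For the shares of gene starts given next, an HBO1 peak of any kind counted, including those at coding starts. Of the 1266 snoRNA gene starts outside the run and the copies on either side of it, 5.53% (4.34 to 6.93) had a peak within 1 kb. All noncoding starts had 2.48%, and those outside both runs 2.33% (2.15 to 2.51). Neighbouring starts that share a peak were counted singly in these shares, and the intervals do not allow for this. The share was 6.94% (4.80 to 9.66) for genes typed processed_transcript and 8.49% (5.67 to 12.1) for rRNA genes, or 4 of 267 outside the 5S array. The share for lincRNA genes was 2.51% (2.09 to 3.00), for antisense genes 3.73% (2.95 to 4.66), for miRNA genes 3.11% (2.35 to 4.01), for snRNA genes 1.46% (0.867 to 2.30) and for processed pseudogenes 1.57% (1.32 to 1.86).

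Base composition moved with these shares. Noncoding starts had a median GC of 44.6% in 1 kb and 3 input read ends, against 55.1% and 50 for protein-coding genes, of which 19.2% (18.7 to 19.8) had a peak within 1 kb. The share at noncoding starts rose from 0.296% (0.169 to 0.480) under 40% GC to 41.3% (33.8 to 49.0) at 65% and over. In the classes from 40 to 60% GC it was below that of coding genes, for example 5.61% (4.84 to 6.46) against 13.7% (12.6 to 14.9) at 50 to 55%. At 65% and over, and under 40%, the intervals of noncoding and coding genes overlapped, and at 60 to 65% they only touched, at 22.2% (16.4 to 28.8) and 30.4% (28.8 to 32.0). The 172 noncoding starts of the highest class include the 51 of the 5S array, and without them, an alternative added after the data were seen, the share was 39.7% (30.9 to 49.0). For lncRNA genes the intervals stayed apart from those of coding genes in both upper classes, with 14.8% (8.71 to 22.9) at 60 to 65% and 32.1% (20.3 to 46.0) at 65% and over.

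**Figure D4:**
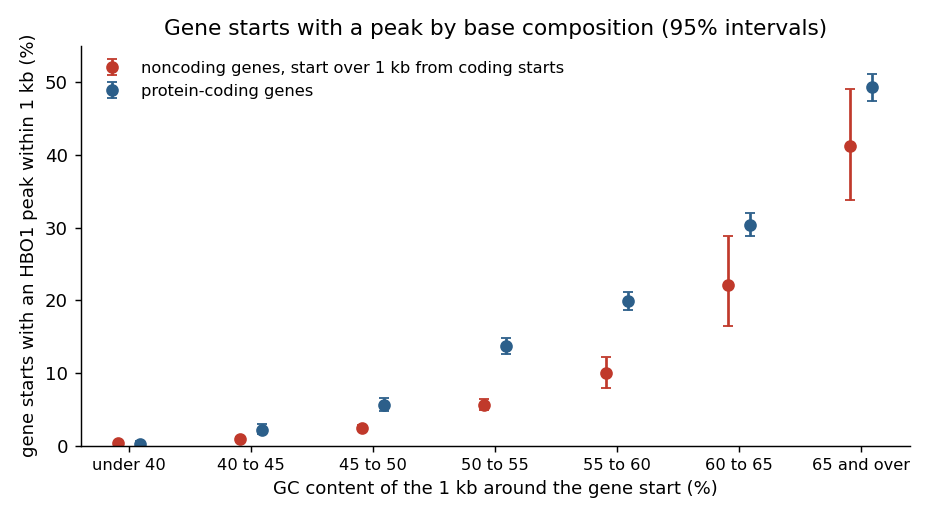
Percent of gene starts with an HBO1 peak within 1 kb (vertical axis, 95% exact binomial intervals) by GC content within 1 kb centred on the start (horizontal axis), for noncoding genes whose start is over 1 kb from any coding start and for protein-coding genes. Peaks of any kind count, including those at coding starts. Shares rose with GC in both groups, to 41.3% (39.7% without the 5S array, 32.1% for lncRNA genes alone) and 49.3% in the highest class.

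Per length of genome, the sequence within 1 kb of noncoding starts but not of coding ones covered 87.3 Mb and held 899 summits, which is 10.3 per Mb. Sequence within 1 kb of coding starts held 70.8 per Mb, and the rest of these chromosomes held 3.37 per Mb. Differences in base composition and input were not removed from these densities.

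Summits sat about noncoding starts less one-sidedly than about coding starts. Within 100 bp of the nearest start lay 199 summits. Of the 401 that lay more than 100 and up to 500 bp away, 60.3% (55.4 to 65.2) were downstream, while at coding starts 85.8% (84.5 to 87.0) were. By class, the downstream share was 69.9% (58.8 to 79.5) at pseudogenes and 68.9% (58.3 to 78.2) at lncRNA genes. It was 58.3% (50.2 to 66.2) at isoforms of protein-coding genes, 50% (23.0 to 77.0) at TEC transcripts and 37.0% (24.3 to 51.3) at small RNA genes. By transcript type, it was 73.3% (60.3 to 83.9) at lincRNAs, 66.7% (52.9 to 78.6) at processed pseudogenes and 57.5% (45.4 to 69.0) at retained introns. At antisense transcripts it was 57.9% (33.5 to 79.7). The small RNA types differed in direction. At snoRNAs 14 summits at these distances were downstream and 8 upstream (63.6%, 40.7 to 82.8). At miRNAs 2 of 13 such summits were downstream (15.4%, 1.92 to 45.4) and 11 were upstream of the hairpin. Among CpG-rich peaks the share was 52.8% (43.7 to 61.8) and among the others 63.8% (57.8 to 69.4). An annotated miRNA or snoRNA start is the edge of the processed RNA, so upstream and downstream there do not refer to a promoter.

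**Figure D5:**
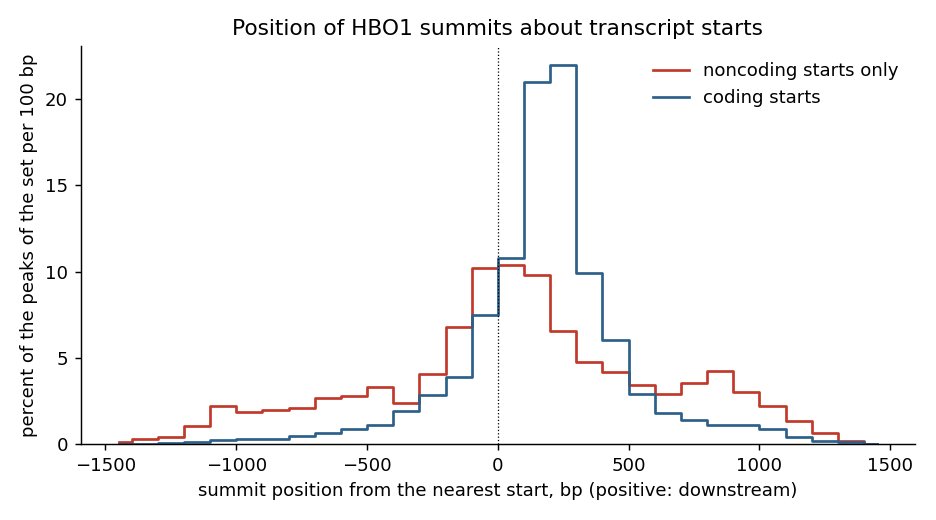
Percent of the peaks of each set per 100 bp (vertical axis) by the position of the summit from the nearest start in bp, positive in the direction of transcription (horizontal axis), for the 961 peaks at noncoding starts only and the 4407 at coding starts. Coding-start summits concentrated 100 to 500 bp downstream, and noncoding-start summits centred on the start with wide flanks on both sides.

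At the summit, sequence differed between the sets. GC content had a median of 56.0% (55.7 to 56.3) at noncoding starts, 71.3% (71.0 to 71.7) at coding starts and 55.3% (55 to 55.3) away from starts. CpG-rich summits made up 27.7% (24.9 to 30.6), 85.4% (84.3 to 86.4) and 18.3% (17.4 to 19.2). The CpG-rich members had a median fold enrichment of 2.62 (2.46 to 2.77) and the others 4.73 (4.56 to 4.90), but they also had 78 against 10 input read ends. At similar input the intervals of both overlapped in each of the 5 classes, for example 2.38 (2.25 to 2.53) and 2.38 (2.16 to 2.58) with 61 to 120 read ends.

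Short sequence motifs were searched on both strands in 300 bp, each on its own, so that overlapping matches count for every motif they belong to. The windows were centred on the summit of a peak, or on the annotated start where there was no peak. Starts without a peak were the outermost starts of genes of noncoding types, so isoforms of protein-coding genes are not among them. The GC box, GGGCGG, was in 24.8% (22.1 to 27.6) of the windows at noncoding starts, in 65.6% at coding starts, in 20.2% away from starts and in 6.09% of windows at noncoding starts without a peak. The NF-Y motif CCAAT was in 25.7% (23.0 to 28.6), 11.1%, 33.3% and 38.8% of the same sets. AAGATGGCG, a motif of YY1, was in 3.02% (2.03 to 4.31) at noncoding starts, 2.13% at coding starts and 0.625% at starts without a peak, but in 11.05% away from starts. The Sox motif CATTGT was in 11.6%, 4.54%, 8.17% and 17.2%, the TATA box TATAAA in 3.95%, 1.13%, 4.73% and 18.1%, and the ETS motif CCGGAAG in 5.31%, 8.12%, 7.43% and 2.14%. The CRE motif TGACGTCA, the NRF1 motif GCGCATGCG and the Esrrb motif TCAAGGTCA were each in under 1% of the windows at noncoding starts, with 8, 3 and 4 peaks. A match is no evidence of binding, and starts without a peak are poorer in GC.

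The octamer ATGCAAAT, the element recognised by Oct1 and Oct4, was within 150 bp of the summit at 5 of the 961 peaks (0.520%, 0.169 to 1.21). It was at 0.136% of coding-start peaks, 0.537% of peaks away from starts and 3.11% of noncoding starts without a peak. The last share is for windows centred on the start and not on a summit. The MORE, a palindrome of the unit ATGCAT in tandem, was present with at most 1 mismatch at 1 peak. This peak lay near the lincRNA gene Gm44148 and had a fold enrichment of 8.26. It makes 0.104% of the peaks (0.00263 to 0.578), an interval that holds the shares of the other sets. The MORE was at 0.0227% of coding-start peaks, 0.0275% of peaks away from starts and 0.363% of noncoding starts without a peak.

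Of the 5 octamer peaks, 3 were at snRNA genes, which are known to carry an octamer in a distal element of their promoters. They are 3 of 14 peaks at snRNAs (21.4%, 4.66 to 50.8), against 2 of the other 947 (0.211%, 0.0256 to 0.761), those at a retained intron of Sugp2 and at the pseudogene Gm18627. This split was not planned and singles out a group by the octamer peaks themselves, so it is a description only. The snRNA peaks were modest. Rnu11, the gene of the U11 RNA of the minor spliceosome, had a fold enrichment of 3.99 with 7 input read ends, Gm24407 had 2.24 with 60, and Gm22973 had 5.47 with 13, and their summits lay 125, 189 and 106 bp upstream of the start. In these 60 bases, in the direction of the gene, the octamer or its reverse complement ATTTGCAT is in capitals.
Rnu11, chr4:132270395-132270454, minus strand: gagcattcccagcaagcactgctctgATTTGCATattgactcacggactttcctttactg
Gm24407, chr5:115490001-115490060, plus strand: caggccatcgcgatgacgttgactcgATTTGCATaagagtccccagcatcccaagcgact
Gm22973, chr12:59040079-59040138, plus strand: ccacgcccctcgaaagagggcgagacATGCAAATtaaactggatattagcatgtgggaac

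The octamers began 215, 227 and 230 bp upstream of the 3 starts. Within 300 bp upstream of the start an octamer was present at 3 of 13 snRNA genes with a member peak (23.1%, 5.04 to 53.8) and at 50 of 1216 snRNA genes without a peak within 1 kb (4.11%, 3.07 to 5.39), and these intervals overlapped. Most annotated snRNA genes are copies whose activity is not known. The remaining snRNA peaks had no octamer in 150 bp, among them both peaks of Rnu1b6, with fold enrichments of 4.06 and 2.68, where no input read end had a mapping quality of at least 20.

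The peaks at the edges of the definition had the following fold enrichments. The outermost members by distance to a noncoding start were peaks at Cdk5rap1, 1000 bp away with 3.55, and Abhd4, 999 bp away with 4.56. Just outside were Brd2, at 1004 bp with 11.4, and AC132455.2, at 1007 bp with 4.39. By the coding start, peaks of Actn1 and Impact, both 1010 bp away, were included, with 3.09 and 2.53, and those at Kcnn2, 998 bp away with 2.34, and Gapdh, 989 bp away with 5.36, were not.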

How the data were processed

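Read pairs had been mapped by the authors to mm10 (Novoalign 4.03.01), and peaks came from MACS2, with q 0.005 and a largest gap of 100 bp. How the 2 ChIP samples were combined, and whether duplicates were removed, is not given in the sources used here. The deposited peak list gives a fold enrichment, the authors' ratio over local background, and a −log10 q from their peak caller. The deposited input lists read ends with the mapping quality score of the authors' aligner, with no normalization, and was counted at midpoints in 1 kb around summits. Distances, base composition and motifs were computed with Python 3.11.15, numpy 2.4.6, pandas 2.3.3 and scipy 1.17.1 from GENCODE vM21 and GRCm38, and figures drawn with matplotlib 3.10.9. A peak was assigned to the start nearest to its edge, with ties settled by the summit. Shares have exact binomial intervals and medians have order-statistic intervals at 95%. The gene start in shares of starts was the outermost one. Runs were at least 6 members with neighbouring summits at most 100 kb apart, and the 2 with the most members are described.

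Genes were named as those of the 10 members of highest fold enrichment or −log10 q, the highest of each class, those at the limits of the definition, those with most members, and list genes with a member. Others, among them the ribosomal protein genes, Rps and Rpl hosts, and the next genes of a class, were named after their values were seen. Members and lists were chosen with earlier results of these data known. The distance, motif and interval steps were tested on simulated data.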

Additional observations from a re-analysis of the deposited data

How the results depend on the processing

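Of 42 values recomputed under another setting, 31 stayed in the 95% interval of the reported share or, for counts and the ratio, within 1.5 times. The ratio of median fold enrichment stayed between 1.56 and 1.68, the downstream share between 60.2 and 63.3%, and the octamer share between 0.312 and 0.648%. None of these settings matched the sets by input, and within classes of input the ratio ran from 0.907 to 1.10. Peaks with a −log10 q of at least 10 numbered 251, with 69.7% nearest to noncoding genes and 37.1% CpG-rich. At this limit 0.865% of noncoding gene starts had an HBO1 peak of any kind within 1 kb. With only noncoding gene types, where their share is 100% by construction, there were 617 peaks, 35.2% CpG-rich. Within 500 bp of a noncoding start 31.3% were CpG-rich, and 1.88% of gene starts had a peak. At 1 kb, counting every noncoding start singly in place of 1 per gene gave 2.93%, where 2.48% was reported. Without peaks of poor mapping quality, 55.3% were nearest to noncoding genes and 24.6% were CpG-rich. The causes were not tested. Leaving out both long runs, a setting added after the data were seen, left 917 peaks and moved none of the 7 results past these limits. From a single deposited list, no replicate could be left out and no paired analysis was possible because the list holds no values per sample.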
